A study of Mus musculus with 12 samples.

Results

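The genes described here make cholesterol and fatty acids or move cholesterol out of cells, and 31 were chosen by name, of 20967 genes measured above background on at least 1 array. They comprise 7 genes of the mevalonate steps, 9 genes from squalene to cholesterol, 4 genes of sterol sensing and transport, 7 fatty acid synthesis genes and 4 genes of efflux and the liver X receptor (LXR). Expression was measured on 1-colour Agilent arrays in neural progenitor cells from mice of the 129/Ola strain. The tested cultures were each infected with a retrovirus (pMXs-IRESNeo) carrying the open reading frame of Pax6, Esx1, Crebzf, Pdx1, Sox11, Zfp451, Hmga2, Gatad2b, Etv6 or Nfxl1. The reference cultures carried EGFP in the same vector or were labelled mock. All infected cultures received G418 from 24 h, which removes cells that lack the neomycin resistance of the vector, at a titre giving about 95% expressing cells, and were harvested at 72 h. The labels do not say whether the mock culture met a virus or G418. Each condition has 1 array, so there is no replicate, no p-value and no error on any difference below.

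Cells build cholesterol from acetyl-CoA through mevalonate, farnesyl diphosphate, squalene and lanosterol. When membrane sterol is low, the factor SREBP2, encoded by Srebf2, is released from the endoplasmic reticulum and raises transcription of these enzymes, while SREBP1, encoded by Srebf1, acts more on fatty acid synthesis. When sterol is plentiful, oxysterols activate the LXR proteins, which raise transcription of the exporters Abca1 and Abcg1, of Mylip, whose product is a ubiquitin ligase that limits sterol uptake, and of Srebf1. In the brain, cells make their own cholesterol, since lipoproteins of the blood do not cross the blood-brain barrier, and astrocytes pass it on in particles that carry apolipoprotein E.

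The stretches upstream of 6 of these genes are printed because their transcripts moved, or because they hold the letters of a sterol or oxysterol response element. Each run is the 250 bases before a transcription start, written 5′ to 3′ on the gene's strand, from RefSeq in the build GRCm38.p6. Capitals mark CCAAT (or ATTGG, its complement), where the cofactor NF-Y binds. Capitals also mark TCACNCCAC, the sterol response element bound by SREBP, and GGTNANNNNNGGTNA, a direct repeat spaced by 4 bases (DR4) of the kind that LXR binds. All were searched on both strands and none of the marked runs overlaps another kind of motif. The windows lie at chr4:53159896-53160145 (minus strand, Abca1), chr11:120824548-120824797 (minus, Fasn), chr11:60210472-60210721 (minus, Srebf1), chr13:119690101-119690350 (plus, Hmgcs1), chr5:114444019-114444268 (plus, Mvk) and chr1:169969206-169969455 (minus, Hsd17b7).
Abca1: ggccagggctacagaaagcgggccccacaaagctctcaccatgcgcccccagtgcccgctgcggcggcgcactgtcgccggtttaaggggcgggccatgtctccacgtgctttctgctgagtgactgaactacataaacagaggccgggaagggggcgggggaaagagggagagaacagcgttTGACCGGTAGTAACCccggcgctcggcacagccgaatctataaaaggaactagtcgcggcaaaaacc
Fasn: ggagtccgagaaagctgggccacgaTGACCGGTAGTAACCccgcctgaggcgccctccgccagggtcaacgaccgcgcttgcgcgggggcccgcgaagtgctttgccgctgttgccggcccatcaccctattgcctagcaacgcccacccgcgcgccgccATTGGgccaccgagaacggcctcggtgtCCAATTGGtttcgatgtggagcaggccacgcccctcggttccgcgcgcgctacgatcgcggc
Srebf1: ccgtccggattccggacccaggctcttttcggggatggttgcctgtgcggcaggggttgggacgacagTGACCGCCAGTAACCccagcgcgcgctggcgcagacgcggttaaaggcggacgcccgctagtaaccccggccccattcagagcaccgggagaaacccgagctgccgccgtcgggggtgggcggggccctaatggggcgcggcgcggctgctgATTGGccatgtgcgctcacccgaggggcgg
Hmgcs1: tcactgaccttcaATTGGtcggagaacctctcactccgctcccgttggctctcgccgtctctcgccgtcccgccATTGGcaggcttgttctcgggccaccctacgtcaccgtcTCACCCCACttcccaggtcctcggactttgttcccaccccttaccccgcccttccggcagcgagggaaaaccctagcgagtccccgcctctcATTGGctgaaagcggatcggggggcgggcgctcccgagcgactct
Mvk: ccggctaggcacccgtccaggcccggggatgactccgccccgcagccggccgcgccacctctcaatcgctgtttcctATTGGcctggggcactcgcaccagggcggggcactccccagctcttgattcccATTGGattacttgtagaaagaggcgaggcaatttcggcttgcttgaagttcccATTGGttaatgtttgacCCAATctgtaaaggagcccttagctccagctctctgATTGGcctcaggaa
Hsd17b7: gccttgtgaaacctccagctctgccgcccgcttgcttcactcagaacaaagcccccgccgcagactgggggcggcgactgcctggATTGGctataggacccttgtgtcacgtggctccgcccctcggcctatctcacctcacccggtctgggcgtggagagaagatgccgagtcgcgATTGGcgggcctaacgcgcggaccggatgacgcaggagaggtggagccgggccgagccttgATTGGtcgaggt

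RefSeq windows were matched for 23 of the 31 genes. The DR4 letters occurred in 3 of them, against 0.707% of 27025 genes with a window. Abca1 and Fasn held the identical run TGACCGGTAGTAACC, at positions -67 to -53 and -225 to -211 from the start, and Srebf1 held TGACCGCCAGTAACC at -182 to -168 of the printed window. The sterol response element letters were found in Hmgcs1, at -137 to -129, against 1.22% of all genes. CCAAT occurred in 12 of 13 matched genes of sterol synthesis, against 37.5% of all genes, and in 1 of 4 matched genes of fatty acid synthesis. A match describes letters in a window and does not show a bound site.

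Levels are given as log2 of the background-subtracted signal relative to the 75th percentile of each array, so 0 is that percentile. A difference is the level on a factor array minus the mean of the EGFP and mock arrays, in log2. A gene was called when it lay at least 2-fold above both controls or at least 2-fold below both. All 31 genes were well above background on all 12 arrays. Between the EGFP and mock arrays the median absolute difference over all genes was 0.0696, and the largest among the 31 was 0.378, for Abca1. The same pair of controls serves all 10 factors, so an error in a control enters every difference.

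Over all genes, 6 arrays stood apart from the rest: Pax6, Esx1, Crebzf, Pdx1, Sox11 and Zfp451. Each of them differed at least 2-fold from each of the other 6 at 3873 to 4993 genes, while 153 to 1367 genes differed between arrays among the 6 and 311 to 842 among the others. This division comes from the data and is not a grouping of the study, so each array is given singly or as a range. The Pax6 and Hmga2 arrays shared a slide with both controls, Esx1, Gatad2b, Etv6 and Nfxl1 shared another, and Crebzf, Pdx1, Sox11 and Zfp451 filled the remaining slide, where slide and factor cannot be told apart. Of 26 probes for the 10 overexpressed genes, 3 were highest on their own array and 0 were at least 2-fold above every other array. Which probes lie inside the cloned reading frames is not established here, so this neither checks nor contradicts the labels, and each array is called by its label.

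Among markers of the labelled cell type, Nes, Sox2 and Vim were well above background on all 12 arrays, while Fabp7 was so on 5 and Olig2 on 3. The 10 progenitor markers summed to a log2 level of 6.36 to 6.61 on the 6 arrays that stand apart, 6.65 to 6.97 on the other 4 factor arrays, and 6.67 on EGFP and 6.62 on mock. Within that list Nes was called lower on 5 of the 6, by -1.51 to -1.08 over the 6, and Fabp7 and Olig2 were called higher on Crebzf. On Zfp451, 2 of the 10 were called lower. The 8 fibroblast markers summed to a log2 level of 7.82 to 7.93 on these 6 arrays, 6.57 to 6.72 on the other 4 factor arrays, and 6.71 on EGFP and 6.62 on mock. The 6 measured astrocyte markers summed to 2.62 to 3.13 on the 6, 1.58 to 2.02 on the other 4, and 1.87 and 1.76 on EGFP and mock, with Gfap well above background on 1 array. The 7 neuron markers summed to 0.77 to 0.96 on the 6, -0.12 to 0.08 on the other 4, and -0.03 and 0.00 on EGFP and mock, with Dcx above background on 1 array. These lists move with the lipid genes below, and their part in those results was not tested. In bulk RNA, fewer cells of a type and less RNA per cell cannot be told apart.

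The rule gave 23 calls over the 31 genes and 10 factor arrays, 15 higher and 8 lower, and these lay in 7 genes. The exporters Abca1 and Abcg1 and the ubiquitin ligase Mylip gave the 15 higher calls, and Mvk, Hsd17b7, Stard4 and Acaca gave the 8 lower ones. The remaining 24 genes were called on no array by their brightest probe. Of the 31 genes, 3 were called higher on Pax6 and on Esx1, and 2 on each of Crebzf, Pdx1, Sox11 and Zfp451, where 10.7%, 10.3%, 9.82%, 9.85%, 9.74% and 9.6% of all genes were. Called lower were 1 gene on Pax6, 3 on Esx1, 1 on Crebzf, 2 on Pdx1, 1 on Sox11 and 0 on Zfp451, where 6.39%, 7.42%, 6.28%, 6.62%, 6.92% and 6.3% of all genes were. On the other 4 factor arrays there was 1 call, Abca1 on Etv6. The shares of all genes called higher were 0.439% on Hmga2, 0.644% on Gatad2b, 1.04% on Etv6 and 0.3% on Nfxl1, and those called lower 0.672%, 1.05%, 0.835% and 1.23%. Read against these shares, the counts on the 6 arrays that stand apart lie near those of all genes and are not a result about the 31.

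**Figure D1:**
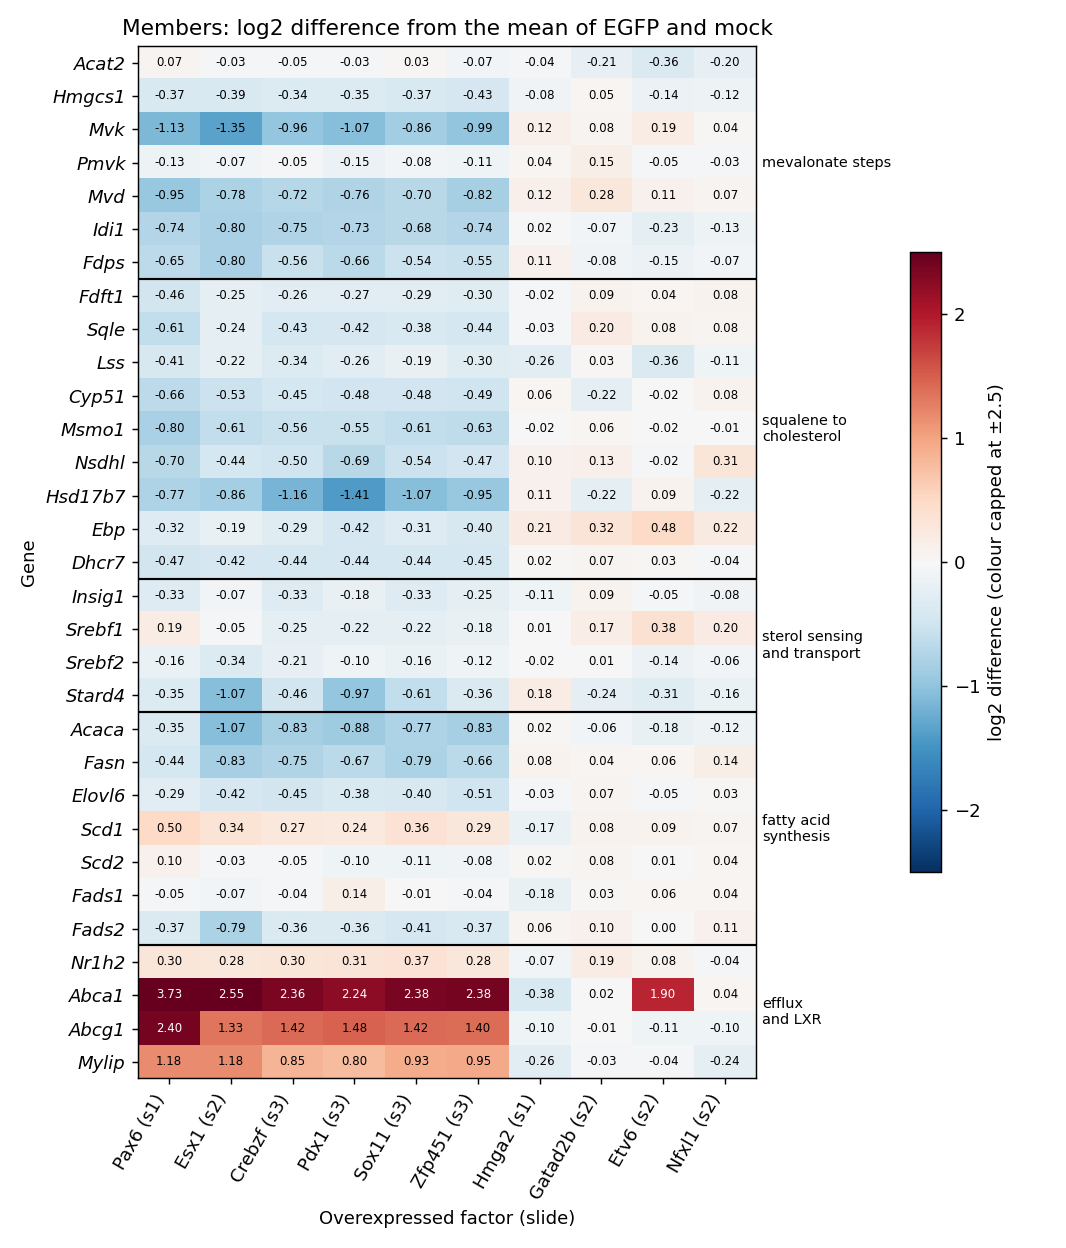
Log2 difference of each of the 31 genes (rows, grouped by role) from the mean of EGFP and mock on each factor array (columns, with its slide as s1, s2 or s3), with the value printed in each cell. Each array is set to its 75th percentile. Blue fills the sterol synthesis rows, apart from Acat2 and Pmvk near 0, on Pax6, Esx1, Crebzf, Pdx1, Sox11 and Zfp451. Red fills Abca1, Abcg1 and Mylip on the same arrays, with Abca1 also red on Etv6 at 1.90.

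The exporter genes showed the largest differences of the 31. Abca1 and Abcg1 have 1 probe each, so their sizes could not be compared between probes. Abca1 encodes the transporter that loads cholesterol and phospholipid onto lipid-poor apolipoproteins, and its probe lies at chr4:53044891-53044950 in mm7. Its log2 level was 0.13 on Pax6, -1.04 on Esx1, -1.24 on Crebzf, -1.35 on Pdx1, -1.22 on Sox11, -1.21 on Zfp451, -3.97 on Hmga2, -3.58 on Gatad2b, -1.70 on Etv6 and -3.55 on Nfxl1, against -3.41 on EGFP and -3.78 on mock. Thus 7 factor arrays lay above both controls with no overlap, and Hmga2 lay below both. Of all genes, 26.9% lay above both controls on all 6 arrays that stand apart, by any size. Abca1 was 13.2-fold above the control mean on Pax6, 5.86-fold on Esx1, 4.74- to 5.22-fold on the slide that holds Crebzf, Pdx1, Sox11 and Zfp451, and 3.73-fold on Etv6. A normexp background correction kept all 7 calls and gave 7.73-fold on Pax6, 3.58-fold on Esx1, 2.99- to 3.28-fold on the slide of 4, and 2.48-fold on Etv6. The Pax6 value was 1.18 above Esx1, the next array, which made Abca1 the only gene of the 31 at least 2-fold away from all 11 other arrays on any array.

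Abcg1 encodes a transporter that passes cholesterol to larger lipoprotein particles, and its probe lies at chr17:29310847-29310906 in mm7. Its level was 0.39 on Pax6, -0.69 on Esx1, -0.60 on Crebzf, -0.54 on Pdx1, -0.59 on Sox11, -0.62 on Zfp451, -2.12 on Hmga2, -2.02 on Gatad2b, -2.12 on Etv6 and -2.12 on Nfxl1, against -2.01 on EGFP and -2.02 on mock. The gene rose 5.28-fold on Pax6 and between 2.51- and 2.79-fold on Esx1, Crebzf, Pdx1, Sox11 and Zfp451. On Etv6, where Abca1 was called, Abcg1 differed by -0.11 and was not. Both exporters were called higher on all 6 arrays that stand apart, as were 6.72% of all genes. Centring within slides ended these calls on Crebzf, Pdx1, Sox11 and Zfp451 (0.74 to 0.88 for Abca1, 0.55 to 0.63 for Abcg1), since that slide holds no other array.

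Mylip, the ubiquitin ligase that limits sterol uptake, stood at 3.13 on Pax6, 3.12 on Esx1, 2.79 on Crebzf, 2.75 on Pdx1, 2.88 on Sox11, 2.90 on Zfp451, 1.68 on Hmga2, 1.92 on Gatad2b, 1.91 on Etv6 and 1.71 on Nfxl1, against 2.02 on EGFP and 1.88 on mock. It was called on Pax6 and Esx1, each 2.26-fold above the control mean, and lay 1.74- to 1.93-fold above it on Crebzf, Pdx1, Sox11 and Zfp451 without a call. With quantile normalization, or with mock alone as reference, it was also called on Sox11 and Zfp451. Its dimmer probe differed by 0.23 to 1.24 on the 6 arrays, the least on Esx1, and the call there was lost with the mean of both probes (0.70). Nr1h2, which encodes LXR beta, differed by 0.28 to 0.37 on the 6 and was not called.

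**Figure D2:**
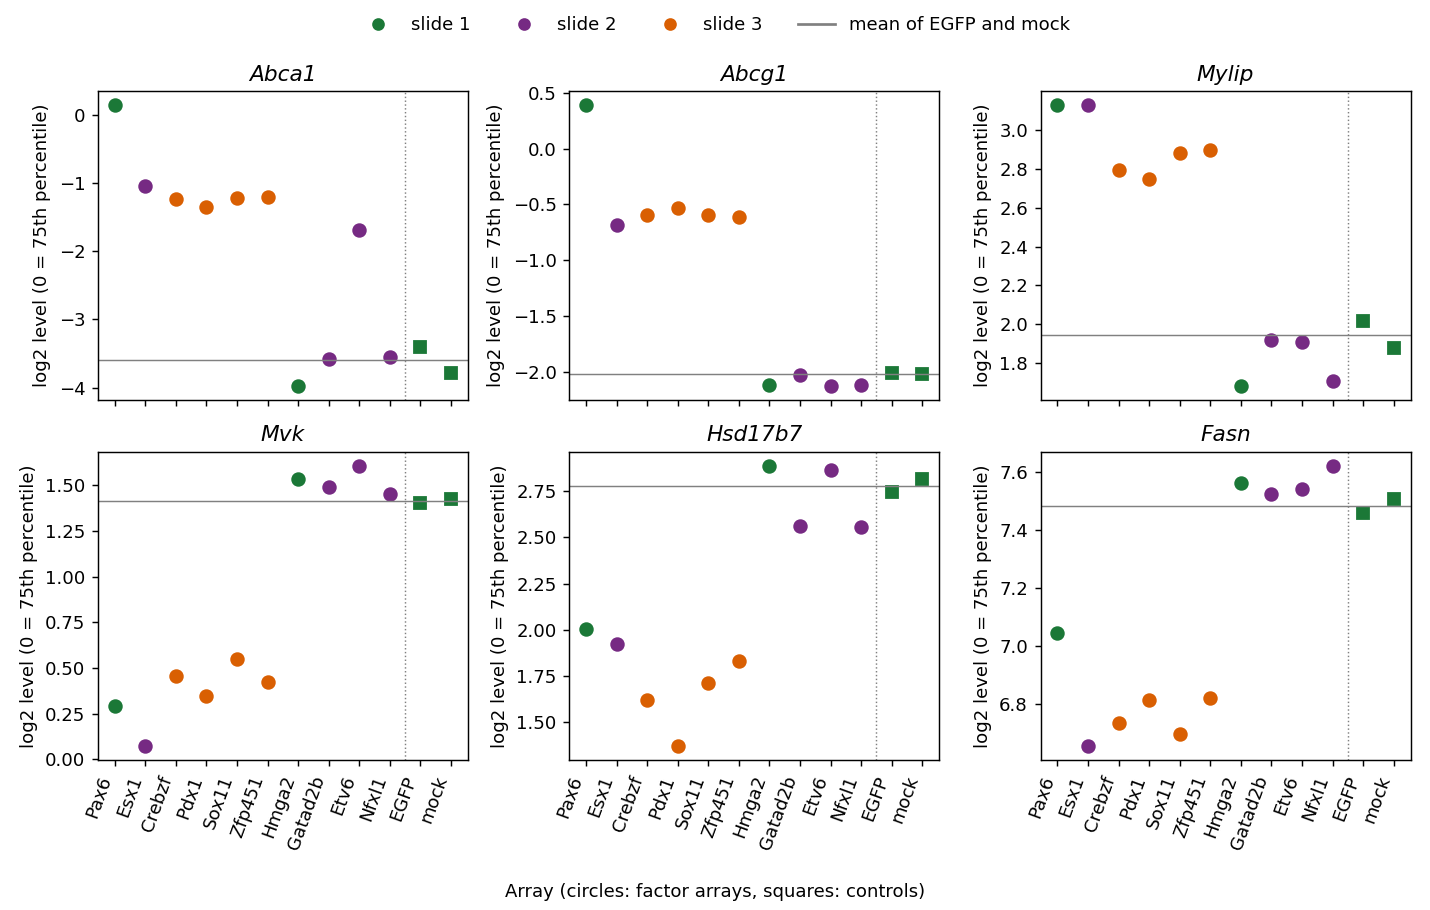
Log2 level (y axis, 0 is the 75th percentile of the array) of 6 genes on each of the 12 arrays, with circles for factor arrays, squares for the controls, colours for the slide and a line at the mean of EGFP and mock. Abca1 is high on 7 factor arrays including Etv6, Abcg1 and Mylip on 6, and Mvk, Hsd17b7 and Fasn are low on those 6.

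Sterol synthesis genes moved the other way, by less. Of the 16, all but Acat2 lay below both controls on each of the 6 arrays that stand apart, which 38.1% of all genes did. The size of that share depends on signal: among the 2213 genes at or above the median level of the 31, 61.6% lay below both controls on all 6. The median difference of the 16 was -0.63 on Pax6, -0.43 on Esx1, -0.44 on Crebzf, and -0.46 on Pdx1, Sox11 and Zfp451. On the same arrays the median over all genes was -0.02, -0.12, -0.08, -0.15, -0.13 and -0.08, and over the 2213 brighter genes it was -0.30, -0.28, -0.22, -0.27, -0.25 and -0.28. On Hmga2, Gatad2b, Etv6 and Nfxl1 the median of the 16 was 0.03, 0.06, -0.02 and -0.02. Quantile normalization forces all arrays to the same distribution. It left 13, 11, 14, 15, 12 and 15 of the 16 below both controls on Pax6, Esx1, Crebzf, Pdx1, Sox11 and Zfp451. Their medians were then -0.32 to -0.20, against -0.034 to 0.012 over all genes. With this normalization the share of all genes, or of brighter genes, below both controls was not counted. No sterol synthesis gene was called lower on all 6 arrays, as 3.23% of all genes were. With a 1.5-fold rule, chosen after seeing the data, 4 were (Mvk, Mvd, Idi1 and Hsd17b7), and 10.1% of all genes were. With that rule Abca1, Abcg1 and Mylip were higher on all 6, as 11.6% of all genes were.

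**Figure D3:**
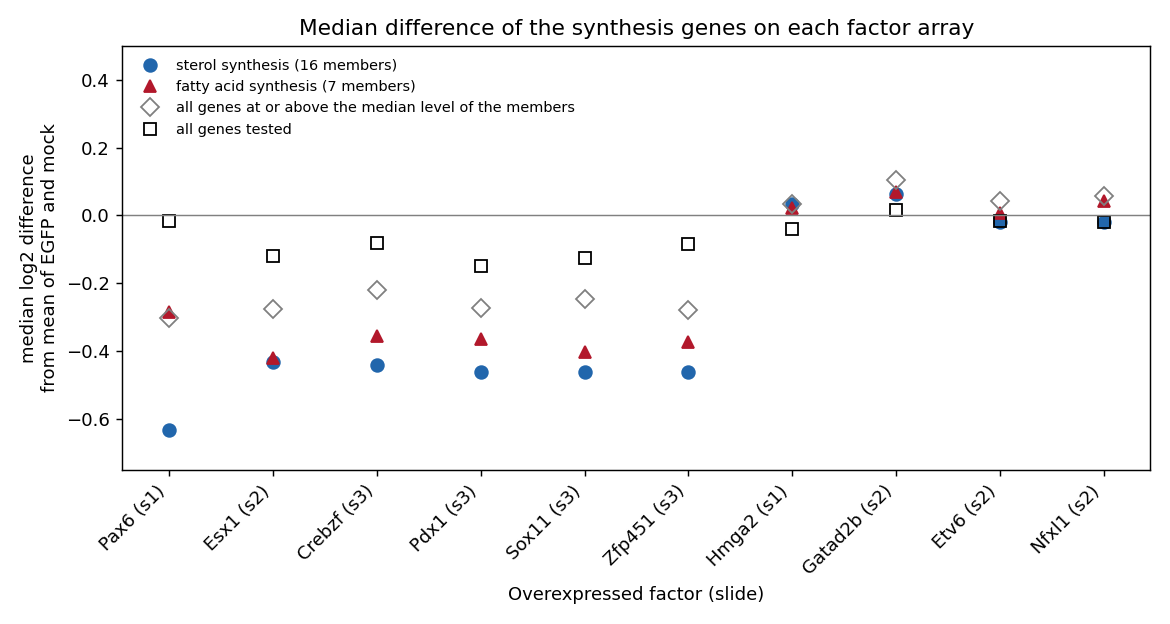
Median log2 difference from the mean of EGFP and mock (y axis) on each factor array (x axis, with its slide) for 16 sterol synthesis genes, 7 fatty acid synthesis genes, all genes tested, and the 2213 genes at or above the median level of the 31. On Pax6 the sterol synthesis median of -0.63 lies below the -0.30 of the brighter genes, while the fatty acid synthesis median of -0.29 lies at it.

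Within the mevalonate steps, Mvk (mevalonate kinase, probe spanning chr5:113677760-113680707 in mm7) differed the most. Its level was 0.29 on Pax6, 0.07 on Esx1, 0.46 on Crebzf, 0.35 on Pdx1, 0.55 on Sox11, 0.42 on Zfp451, 1.54 on Hmga2, 1.49 on Gatad2b, 1.61 on Etv6 and 1.45 on Nfxl1, against 1.40 on EGFP and 1.43 on mock. The first 6 arrays lay below every other array. The share of all genes that did so was not counted, while 38.1% of all genes lay below both controls on all 6. Mvk was called lower on Pax6 (2.18-fold), Esx1 (2.54-fold) and Pdx1 (2.10-fold), and its differences of -0.99 to -0.86 on Zfp451, Crebzf and Sox11 fell just short. Its second probe differed by -1.32 to -0.94 on the 6, and quantile normalization ended the call on Pdx1 (-0.98). Pmvk, the kinase that acts directly after Mvk, differed by -0.15 to -0.05, or 0.13 to 0.21 with quantile normalization. Further along, and without a call, Mvd, which makes isopentenyl diphosphate, differed by -0.95 to -0.70 and Idi1, the isomerase of that product, by -0.80 to -0.68. The brightest Idi1 probe is placed on chromosome 2 in mm7, while the gene lies on chromosome 13. The second Idi1 probe differed by -0.99 to -0.73. Fdps, which makes farnesyl diphosphate, differed by -0.80 to -0.54, or -0.66 to -0.09 on its second probe. Upstream, Hmgcs1, the synthase that makes HMG-CoA, differed by -0.43 to -0.34, and Acat2, the thiolase that starts the route, by -0.07 to 0.07.

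From squalene to cholesterol, Hsd17b7, a keto-reductase of the sterol C4 demethylation complex, was the gene called. Its level, from the probe at chr1:169928936-169928995 in mm7, was 2.01 on Pax6, 1.92 on Esx1, 1.62 on Crebzf, 1.37 on Pdx1, 1.71 on Sox11, 1.83 on Zfp451, 2.89 on Hmga2, 2.56 on Gatad2b, 2.87 on Etv6 and 2.56 on Nfxl1, against 2.74 on EGFP and 2.82 on mock. It was called lower on Crebzf (2.24-fold), Pdx1 (2.66-fold) and Sox11 (2.10-fold), and differed by -0.95, -0.86 and -0.77 on Zfp451, Esx1 and Pax6. Its second probe showed a smaller difference, -0.64 to -0.44, and with the mean of both probes or with quantile normalization the call held on Pdx1 and was lost on Crebzf and Sox11. Its partners in C4 demethylation differed by -0.80 to -0.55 (Msmo1, the methyl oxidase, listed under the older name Sc4mol) and by -0.70 to -0.44 (Nsdhl, the dehydrogenase). Cyp51, the lanosterol demethylase, differed by -0.66 to -0.45 and Dhcr7, a reductase of the last steps, by -0.47 to -0.42. Sqle, the squalene epoxidase, ranged from -0.61 on Pax6 to -0.24 on Esx1, Fdft1, the squalene synthase, from -0.46 to -0.25, and Ebp, the sterol isomerase, from -0.42 to -0.19. With quantile normalization Sqle turned to 0.06 on Esx1, and Ebp turned to 0.02 on Pax6 and 0.09 on Esx1.

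Probes of the same gene gave different sizes for some of these enzymes. Lss, the lanosterol synthase, differed by -0.41 to -0.19 on its brightest probe, but by -1.5 to -0.99 and -1.59 to -0.97 on its other 2 probes. Of the 32 probes for the 16 sterol synthesis genes, 30 lay below the control mean on all 6 arrays that stand apart. The share of all probes that did so was not counted, and probes of the same gene are not independent. Of the 2213 brighter genes, 61.6% lay below both controls on all 6. With the mean of all probes Lss was called lower on Pax6 (-1.06) and Esx1 (-1.10). The probe also set the size elsewhere: on Esx1 Hmgcs1 gave -0.39 on its brightest probe and -1.19 on another, and Nsdhl gave -0.44 and -1.05.

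**Figure D4:**
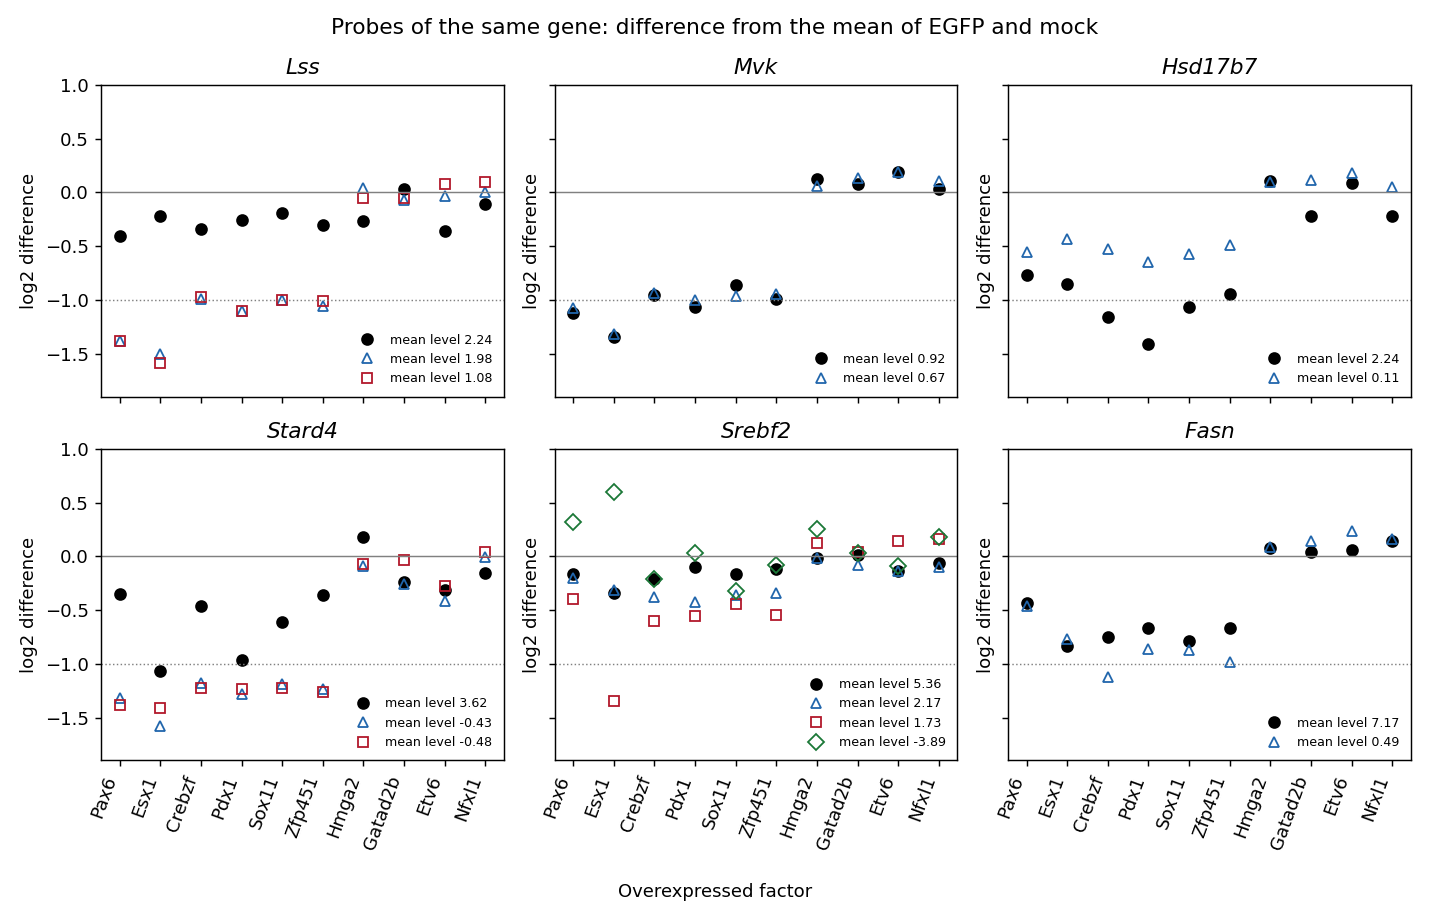
Log2 difference from the mean of EGFP and mock (y axis) of every probe of 6 genes on each factor array (x axis), with filled circles for the brightest probe and the mean log2 level of each probe in the legend. The dotted line marks a 2-fold decrease. The dimmer probes of Lss and Stard4 lie well below the brightest on Pax6, while the probes of Mvk lie together.

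Among the genes of sterol sensing and transport, Stard4, a cytosolic sterol carrier, was called lower on Esx1 (2.10-fold), a call lost with quantile normalization (-0.84) and with centring within slides (-0.67). It ranged from -1.07 to -0.35 on the 6 arrays by its brightest probe and from -1.58 to -1.18 over its other 2 probes, and with the mean of all probes it was also called on Pax6, Pdx1 and Sox11. Srebf2 itself differed by -0.34 to -0.10, or -0.08 to 0.18 with quantile normalization. Its other probes differed by -1.35 to -0.39, by -0.42 to -0.20 and, on the dimmest, by -0.32 to 0.60. Srebf1 ranged from -0.25 to 0.19 on the 6 arrays, or -0.03 to 0.46 with quantile normalization, and stood at 0.38 on Etv6, the array on which Abca1 rose without Abcg1. Insig1, whose product retains SREBP in the endoplasmic reticulum when sterol is high and which SREBP itself induces, differed by -0.33 to -0.07. None of Srebf1, Srebf2 and Insig1 was called on any array.

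The fatty acid synthesis genes did not move together. Acaca (acetyl-CoA carboxylase) and Fasn (fatty acid synthase), the enzymes that commit to and carry out palmitate synthesis, were lower on the 6 arrays. Fasn had levels of 7.05 on Pax6, 6.65 on Esx1, 6.73 on Crebzf, 6.82 on Pdx1, 6.70 on Sox11, 6.82 on Zfp451, 7.56 on Hmga2, 7.53 on Gatad2b, 7.54 on Etv6 and 7.62 on Nfxl1, against 7.46 on EGFP and 7.51 on mock, and was not called. Acaca differed by -1.07 on Esx1, where it was called lower (2.09-fold, lost with quantile normalization, normexp, the mean of all probes and centring within slides), and by -0.88 to -0.35 on the other 5. On Pax6 both differed least, -0.35 for Acaca and -0.44 for Fasn, though Pax6 had the lowest sterol synthesis median.

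The elongase Elovl6 differed by -0.51 to -0.29 on the 6 arrays, or 0.07 on Pax6 with quantile normalization, and the desaturase Fads2 by -0.79 to -0.36, with Fads2 lowest on Esx1. The stearoyl-CoA desaturase Scd1 was higher than both controls on each of the 6, as were 26.9% of all genes. Scd1 differed by 0.24 to 0.50, while Scd2 and Fads1 lay within -0.11 to 0.14, or 0.05 to 0.39 with quantile normalization. The median of the 7 genes was -0.29 on Pax6, -0.42 on Esx1, -0.36 on Crebzf, -0.36 on Pdx1, -0.40 on Sox11 and -0.37 on Zfp451, and 0.01 to 0.07 on the other 4 factor arrays. After quantile normalization it lay between -0.14 and 0.07 on the 6.

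Differences between slides do not enter 2 of these comparisons. Pax6 shared its slide with both controls. On the slide without a control, Esx1 lay below all of Gatad2b, Etv6 and Nfxl1 for 14 of 16 sterol synthesis genes (87.5%, against 49.9% of all genes) and 6 of 7 fatty acid synthesis genes. There the 4 efflux and LXR genes all lay above the other 3 arrays, as did 36.2% of all genes. The median difference of Esx1 from the mean of those 3 arrays was -0.50 for sterol synthesis, -0.43 for fatty acid synthesis and 1.34 for efflux and LXR. Over all genes it was -0.14. No share or median over the brighter genes was computed against those 3 arrays. Against the control mean, the 2213 brighter genes had medians of -0.28 on Esx1 and 0.10, 0.04 and 0.06 on Gatad2b, Etv6 and Nfxl1. Brighter genes as a whole thus also had a lower median on Esx1 than on those 3 arrays.

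Other genes of the same pathways were read from 5 further lists. Of 15 other sterol genes, 1 was called higher (Npc1, the lysosomal cholesterol exporter, by 1.32 on Esx1) and 1 lower (Tmem97, a regulator of that exporter, by -1.15 on Pax6). Of all genes, 10.3% were called higher on Esx1 and 6.39% lower on Pax6. The median of the 15 was -0.30 on Pax6, -0.15 on Esx1, -0.25 on Crebzf, -0.18 on Pdx1, -0.25 on Sox11 and -0.27 on Zfp451. On these arrays the medians were -0.15 to -0.02 over all genes and -0.30 to -0.22 over the 2213 brighter genes.

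Of 20 other efflux and LXR genes, 3 were called higher on Pax6, 5 on Esx1, 4 on Crebzf, 5 on Pdx1, 4 on Sox11 and 4 on Zfp451, and 1 was called lower on each. On these 6 arrays 9.6% to 10.7% of all genes were called higher and 6.28% to 7.42% lower. With normexp, a gene counted on Esx1 and Pdx1 alone, not reported here by name, was 1.19- and 1.31-fold higher and no longer called. Ch25h, which makes 25-hydroxycholesterol, an LXR ligand, stood 8.67- to 13.0-fold above the control mean on these 6 arrays. Apoe, the apolipoprotein that accepts exported cholesterol, stood 5.30- to 9.58-fold above it, and Pltp, the phospholipid transfer protein, 4.89- to 5.88-fold. Cyp7b1, an oxysterol hydroxylase, was called on those arrays except Pax6, at least 3.07-fold higher on Pdx1 and at least 5.23-fold on Esx1, with neither control well above background, and no call of it was left with normexp. Arl4c, a small GTPase reported as an LXR target in human cells, was lower on all 6, by -1.72 to -1.09, with the Pdx1 call lost with normexp. On Etv6 none of the 20 was called, and Nr1h3, which encodes LXR alpha, differed there by 0.92, a gene named after its values were seen.

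Among 12 fatty acid oxidation genes, 3 to 5 were called higher on each of the 6 arrays and 0 lower, beside the same 9.6% to 10.7% and 6.28% to 7.42% of all genes. Pdk4, a kinase that shuts off pyruvate oxidation, stood 11.4- to 14.8-fold above the control mean, and was also called on Etv6 (2.09-fold). With normexp it was 7.22- to 9.04-fold on the 6 and was no longer called on Etv6. Ehhadh, a peroxisomal oxidation enzyme, differed by 2.39 to 2.95 on the 6, or 1.09 to 1.52 with normexp. Ppara, the receptor that induces such genes, was at least 2.54- to 3.58-fold higher, with neither control well above background and no call with normexp. Cpt1a, which admits fatty acids to mitochondria, was called on 3 arrays and differed by 0.93 to 1.19.

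Of 20 other fatty acid genes tested, Elovl7, an elongase of saturated chains, was called higher on all 6 arrays that stand apart. It differed by 1.21 to 1.45, and 6.72% of all genes were called higher on all 6. Called lower were Gpam, the acyltransferase that starts triglyceride synthesis, on Pax6 by -1.30, and Hsd17b12, an elongation enzyme, on Esx1 by -1.21. Mlxipl, a glucose-responsive factor, was called lower on Nfxl1 by -1.81. On Pax6, Esx1 and Nfxl1, 6.39%, 7.42% and 1.23% of all genes were called lower. Of 9 lipid droplet and storage genes tested, Cidec was called, lower on Pdx1 by -1.06, near the detection limit and well above background on 4 arrays. With normexp, applied to these lists after seeing the data, the calls of Gpam, Mlxipl and Cidec were lost.

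**Figure D5:**
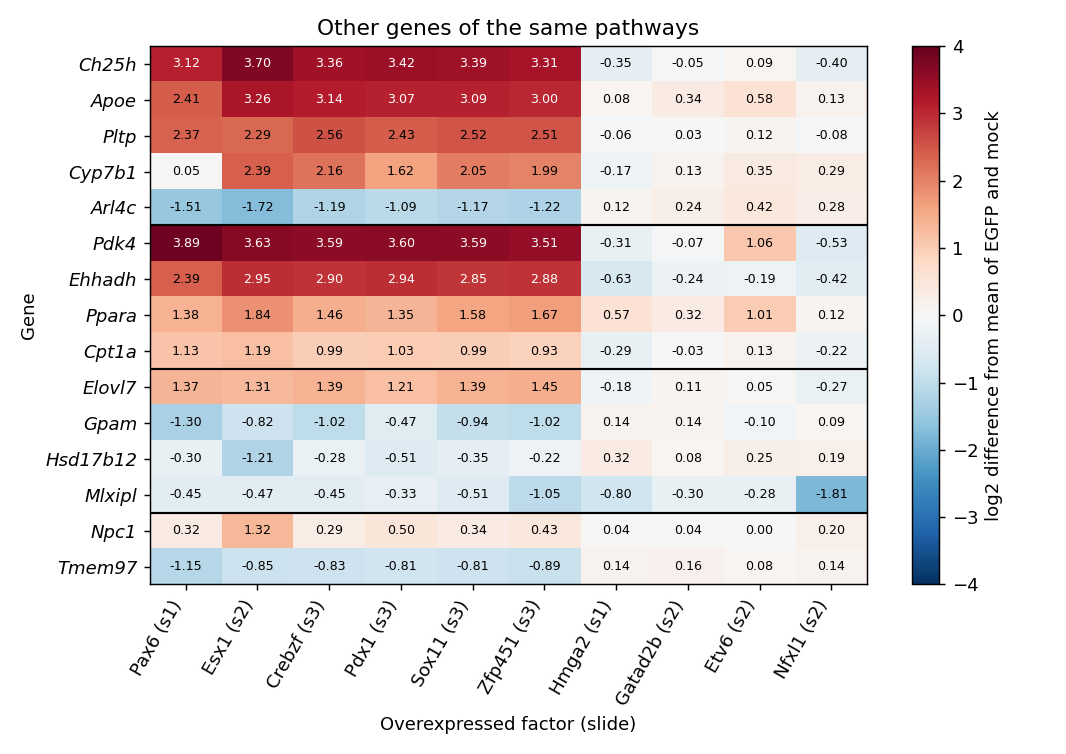
Log2 difference from the mean of EGFP and mock on each factor array (columns, with its slide) for 15 other genes of these pathways. From the top, the blocks hold efflux and LXR genes, fatty acid oxidation genes, other fatty acid genes and other sterol genes. Ch25h, Apoe, Pltp, Pdk4 and Ehhadh exceed 2 on the 6 arrays at the left, Arl4c is below -1 on each of them, and Pdk4 and Ppara are also above 1 on Etv6.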

How the data were processed

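RNA from 12 cultures (0.25 µg each) was hybridised to Agilent 1-colour arrays, 4 on each of 3 slides. The deposited files hold background-subtracted signal intensity per spot from Feature Extraction 10.7.3.1, per the file headers, with probe positions in mm7, and the deposited value table equals it. No later normalization by the authors is recorded in the headers or labels. Outlier spots were left out and repeated spots averaged (43379 spots, 41174 probes). Log2 values were computed from the deposited intensities minus each array's 75th percentile, which lay between 823 and 1026 units. Of the probes, 62.9% to 69.4% were well above background, and 0 spots were saturated. Values under the lowest such signal (-7.05 to -6.46) were raised to it. Probes were named by RefSeq accession (22951), symbol (6659), synonym (3109) or as in the file (8455), and the brightest probe stood for a gene. A call needed the brighter side well above background. The rule was tested on simulated arrays whose noise came from EGFP minus mock, which share a slide. Their added changes were larger than 2-fold, so differences between slides and calls close to 2-fold were not covered. A fold written as "at least" has controls at or under background.

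The 31 genes and all lists were chosen with earlier results of these data known. All 31 are accounted for. Of each pathway list the text names up to 5 genes, those called on the most arrays, and marks any chosen after their values were seen. Some genes of these lists are counted but not reported here by name. Values that moved were judged against 0.122, the spread between EGFP and mock (SD of their difference divided by the square root of 2). Alternatives were quantile normalization, normexp background correction (offset 50, limma 3.58.1 in R 4.3.3), the mean of all probes, no floor, each control alone, centring within slides, only genes detected on all 12 arrays, and a 3-fold rule. A 1.5-fold rule, and normexp for the pathway lists, were chosen after seeing the data. The number of arrays limits the precision.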

Additional observations from a re-analysis of the deposited data

How the results depend on the processing

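No call reversed its direction under any alternative. Of the 23 calls, 0 were lost with EGFP alone, with mock alone or when a gene had to be detected on all 12 arrays, 1 with normexp (Acaca on Esx1), 4 with the mean of all probes, 5 with quantile normalization and 14 with centring within slides. The 5 were Stard4 (-0.84) and Acaca (-0.99) on Esx1, Hsd17b7 on Crebzf (-0.99) and Sox11 (-0.87), and Mvk on Pdx1 (-0.98). The mean of all probes lost Acaca (-0.64) and Mylip (0.70) on Esx1 and Hsd17b7 on Crebzf (-0.85) and Sox11 (-0.82). Calls were gained too: 5 with the mean of all probes (Lss on Pax6 and Esx1, Stard4 on Pax6, Pdx1 and Sox11), 2 with quantile normalization (Mylip on Sox11 and Zfp451), 1 with EGFP alone (Stard4 on Pdx1) and 3 with mock alone (Mvk on Zfp451, Mylip on Sox11 and Zfp451). Centring took all calls from Crebzf, Pdx1, Sox11 and Zfp451 (0 each), by construction, since they fill a slide, and Stard4 and Acaca from Esx1. It left sterol synthesis medians of -0.12, -0.16, -0.12 and -0.15 and fatty acid medians of -0.083, -0.020, -0.047 and -0.074 there. Quantile normalization gave sterol synthesis medians of -0.32 on Pax6, -0.20 on Esx1, -0.24 on Crebzf, -0.22 on Pdx1, -0.24 on Sox11 and -0.22 on Zfp451. Its fatty acid medians were 0.067, -0.12, -0.14, -0.071, -0.12 and -0.14 on those arrays, and -0.054 on Gatad2b. The cause was not tested. The mean of all probes moved the sterol synthesis median on Esx1 to -0.63, and mock alone raised the calls on Zfp451 to 4. With normexp the fold of Abca1 shrank by over 1.5 times on all 7 arrays, to 2.48 to 7.73. The 3-fold rule left 2 calls on Pax6 and 1 on each of Esx1, Crebzf, Pdx1, Sox11 and Zfp451. On these arrays it called 1087 to 1168 of all 20967 genes higher and 243 to 397 lower. The 1.5-fold rule was chosen after seeing the data. It gave 12 calls on Pax6, 13 on Esx1, 9 on Crebzf, 12 on Pdx1, 10 on Sox11 and 10 on Zfp451. Of these calls, 3 were higher on each array and 6 to 10 were lower. On these arrays the 1.5-fold rule called 16.2% to 19.2% of all genes higher and 16.5% to 19.7% lower. No share over the brighter genes was counted for each array with this rule. No paired analysis was possible because each condition has 1 array. For the same reason no array could be left out, beyond using each control alone.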

Other observations

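Apoe and Ch25h did not share the peak of Abca1 and Abcg1 on Pax6. Apoe had log2 levels of 2.77 on Pax6, 3.63 on Esx1, 3.51 on Crebzf, 3.44 on Pdx1, 3.46 on Sox11, 3.37 on Zfp451, 0.45 on Hmga2, 0.71 on Gatad2b, 0.95 on Etv6 and 0.50 on Nfxl1, against 0.37 on EGFP and 0.37 on mock. Abca1 and Abcg1 were highest on Pax6, while Apoe and Ch25h were lowest there of the 6 arrays on which they were called. Beyond Pax6 the exporters shared no order: Esx1 was next for Abca1 (2.55) and lowest of the 6 for Abcg1 (1.33). Pltp differed least on Esx1 (2.29), followed by Pax6 (2.37). Ch25h stood at 0.52 on Pax6, 1.11 on Esx1, 0.77 on Crebzf, 0.82 on Pdx1, 0.79 on Sox11 and 0.71 on Zfp451, against -2.45 on EGFP and -2.73 on mock. Cyp7b1 was at the floor on Pax6 (-6.75) and between -5.19 and -4.42 on the other 5, where no call of it was left with normexp. With 1 array for each factor, these differences between arrays were not tested.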
